A study of Mus musculus with 12 samples.

Results

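The genes described here mark blood endothelium, lymphatic endothelium and pericytes, the cells that build the vessels of the mammary gland. They are 40 listed genes, found by the gene symbol of the array platform, out of 18193 genes with a probe set of their own. All 40 were measured. Each gene is represented by the probe set (a group of short probes for a transcript) with the highest mean over the 12 arrays. Of the 40, 22 genes have further probe sets, 35 in all, and these had the same sign as the chosen one in 29 cases for the estradiol difference in wildtype and in 25 cases in the knockout.

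The tissue was mammary gland from virgin C57BL/6 mice whose ovaries had been removed, so all groups lacked the main source of their own estrogen. Wildtype mice (Ccnd1+/+) and mice without the cyclin D1 gene (Ccnd1-/-) received either a placebo or a pellet holding 0.72 mg estradiol, made to release over 60 days, and were killed after 7 days. Each of the 4 groups has 3 arrays, 12 in all, and the design text describes separate mice. Total RNA of the whole gland was hybridised, so fewer cells of a type and less RNA per cell cannot be told apart. The mice's age and the way Ccnd1 was inactivated are not given in the sources used here.

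Endothelial cells line all vessels and are held together by VE-cadherin and claudin junctions. Growth and remodelling of blood vessels are driven by VEGF acting on the receptor kinases Kdr and Flt1. Angiopoietin 1, made largely by pericytes and other mural cells, acts on the receptor Tek and is known to stabilise vessels, while angiopoietin 2 can oppose it. Lymphatic vessels depend on the transcription factor Prox1 and on Vegfc acting through Flt4, and pericytes wrap the capillaries and carry Rgs5, Cspg4, Kcnj8 and Abcc9. In the mammary gland these vessels run through the fat pad beside the ducts.

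Values are log2 of the array signal as the authors normalized it, so a difference of 1 is a doubling. Array medians lay between 5.73 and 5.80. The fat cell marker Adipoq was between 13.49 and 13.81 on every array, whereas the luminal keratin Krt18 ranged from 4.50 to 11.22. Ccnd1 checked the genotype labels: it was 7.24 to 7.68 on the 6 knockout arrays and 8.50 to 10.8 on the 6 wildtype arrays (exact permutation test, two-sided, p = 0.00216, the smallest that 6 against 6 allows). The arrays differed within groups in lymphocyte and muscle genes. The mean of 15 T cell and B cell markers, relative to the mean of all arrays, was between -2.05 and -1.65 on 5 arrays, which were wildtype placebo 3, wildtype estradiol 1 and 3, knockout placebo 2 and knockout estradiol 1, and between 0.24 and 2.14 on the other 7. The mean of 8 skeletal muscle markers ranged from -3.91 to 3.48.

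Most of the vascular genes were well measured, and the mean of the 40 on each array, relative to all arrays, spanned only -0.36 to 0.48. Esm1, a secreted proteoglycan of sprouting endothelium, lay between 3.24 and 3.85 and under the array's lower quartile on 12 of 12 arrays. Prox1, the defining lymphatic transcription factor, lay between 3.85 and 4.34 and under it on 8 of 12. The other 38 genes were above the lower quartile on every array. These signals are not compared between genes, since probe sets differ in how brightly they bind.

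**Figure D1:**
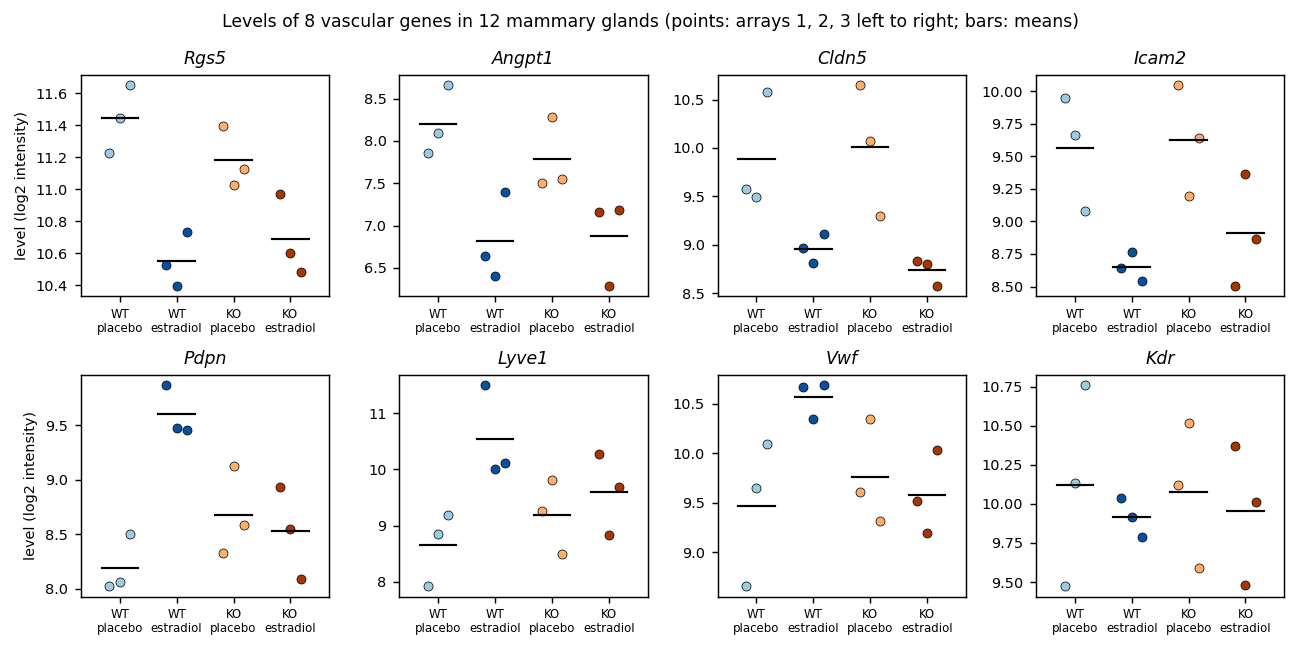
Log2 signal (vertical axes, a scale of its own per gene, not starting at 0) of Rgs5, Angpt1, Cldn5, Icam2, Pdpn, Lyve1, Vwf and Kdr on the 12 arrays, with WT for wildtype and KO for knockout. Points are arrays 1, 2 and 3 from left to right and bars are group means: Rgs5, Angpt1 and Cldn5 lie lower under estradiol in both genotypes, Pdpn has a mean of 9.60 in wildtype estradiol against 8.19 to 8.68 in the other groups, and the Kdr groups overlap.

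Estradiol lowered the pericyte gene Rgs5 in wildtype glands by 1.86-fold and raised the podoplanin gene Pdpn, a surface glycoprotein of lymphatic endothelium that fibroblasts and basal epithelium also carry, by 2.66-fold. These were the 2 vascular genes of 40 called in wildtype at an adjusted p under 0.05 (limma, Benjamini-Hochberg over 18193 genes), where 1.88% of all genes were called, 1.83% as higher and 0.0495% as lower. In the knockout none of the 40 was called (limma; 7 had an unadjusted p under 0.05, where 8.32% of all genes had, and 0.0989% of all genes were called). Averaged over both genotypes, Rgs5 was the 1 called gene, against 1.58% of all genes in either direction and 0.143% lower. A test of the difference between the responses of the genotypes called none of the 40 (limma; 4 at an unadjusted p under 0.05, where 6.43% of all genes were), with 0.0110% of all genes called.

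Rgs5 encodes a regulator of G protein signalling that dampens contraction signals in mural cells. Its log2 signal was 11.23, 11.45 and 11.66 in wildtype placebo, 10.53, 10.39 and 10.73 in wildtype estradiol, 11.40, 11.03 and 11.13 in knockout placebo and 10.97, 10.60 and 10.48 in knockout estradiol. In both genotypes every estradiol array was below every placebo array. The wildtype difference was -0.89 ± 0.17 (log2, SE, n = 3 per group, limma adjusted p = 0.0293), and the average over genotypes was -0.70 ± 0.12 (1.62-fold, limma adjusted p = 0.0201). In the knockout alone it was -0.50 ± 0.17 (limma adjusted p = 0.484). The 3 further Rgs5 probe sets gave wildtype differences of -0.63, -0.86 and -0.96. The wildtype call was lost when any 1 of wildtype placebo 1 or 2, wildtype estradiol 1, 2 or 3 or knockout placebo 3 was left out (limma adjusted p from 0.0503 to 0.119) and when the probe sets were averaged (limma adjusted p = 0.14), with the difference between -1.0002 and -0.79 when single arrays were left out. The average call was lost without wildtype placebo 2, knockout placebo 1 or 3 or knockout estradiol 2 (limma adjusted p from 0.0546 to 0.0628).

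Pdpn was 8.02, 8.06 and 8.50 in wildtype placebo and 9.87, 9.48 and 9.46 in wildtype estradiol, with no overlap. In the knockout the values were 8.32, 9.13 and 8.59 under placebo and 8.94, 8.55 and 8.09 under estradiol, which overlapped. The wildtype difference was 1.41 ± 0.26 (log2, SE, limma adjusted p = 0.0261) and the knockout difference -0.15. Under estradiol the 3 knockout arrays were all below the 3 wildtype arrays, by 1.08 ± 0.26 on average (limma adjusted p = 0.0873). The difference between the 2 responses was -1.56 ± 0.37 (limma adjusted p = 0.291). The wildtype call was lost when any 1 of wildtype placebo 1 or 2 or wildtype estradiol 1, 2 or 3 was left out (limma adjusted p from 0.0575 to 0.125). Markers of basal epithelium, which also carries Pdpn, were higher with estradiol in wildtype too. The mean of 8 was -1.01, -0.78 and 0.02 in wildtype placebo and 0.77, 1.56 and 1.12 in wildtype estradiol. In the knockout it was -0.67, -0.21 and -0.55 under placebo and 0.06, -0.20 and -0.10 under estradiol. There the basal mean was narrowly higher on every estradiol array, while the Pdpn groups overlapped. All 8 basal markers were higher on every wildtype estradiol array than on every wildtype placebo array, as 11.9% of all genes were. Of these, 3 were called, Acta2 and Cnn1 among them, where 1.88% of all genes were called. The mean of 8 fibroblast markers was -0.92, -0.57 and 0.11 in wildtype placebo, 0.82, 0.49 and 0.78 in wildtype estradiol and -0.54 to 0.29 in the knockout. Their part in the Pdpn result was not tested.

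The promoters of the 2 called genes, Rgs5 (lower) and Pdpn (higher), are shown. That of Cldn5, which like Rgs5 was lower on every estradiol array of both genotypes, is added. Angpt1, lower in the same way, had no promoter among those available. Each sequence is the 250 bases before the RefSeq gene start in GRCm38.p6: chr1:169655251-169655500 on the plus strand for Rgs5, chr16:18776597-18776846 on the plus strand for Cldn5 and chr4:143299565-143299814 on the minus strand for Pdpn. They are written 5′ to 3′ with the bases next to the gene start last. Capitals mark matches to the motifs searched on both strands, which were the estrogen response element (GGTCA and TGACC with any 3 bases between them), the ETS motifs AGGAAG and CCGGAA, the SOX motifs AACAAAG and ACAAAG (the first contains the second) and the hypoxia factor motif ACGTG.
Rgs5: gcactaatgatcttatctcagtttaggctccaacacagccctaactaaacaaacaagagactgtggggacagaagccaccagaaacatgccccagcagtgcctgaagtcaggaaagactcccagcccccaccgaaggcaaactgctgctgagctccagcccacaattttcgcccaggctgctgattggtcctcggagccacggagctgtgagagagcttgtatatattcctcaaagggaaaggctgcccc
Cldn5: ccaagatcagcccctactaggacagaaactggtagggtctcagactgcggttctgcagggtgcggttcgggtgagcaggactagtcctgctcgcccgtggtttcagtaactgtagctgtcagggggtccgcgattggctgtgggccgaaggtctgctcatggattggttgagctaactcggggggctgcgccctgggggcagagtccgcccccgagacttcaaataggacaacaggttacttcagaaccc
Pdpn: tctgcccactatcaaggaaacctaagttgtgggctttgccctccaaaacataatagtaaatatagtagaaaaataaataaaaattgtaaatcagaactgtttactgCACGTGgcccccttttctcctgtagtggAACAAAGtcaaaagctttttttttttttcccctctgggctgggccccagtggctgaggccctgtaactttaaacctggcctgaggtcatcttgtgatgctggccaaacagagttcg

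The Pdpn promoter holds ACGTG on both strands, overlapping at 144 and 143 bases before the start, and AACAAAG at 116 bases before it. The Rgs5 and Cldn5 windows held none of the 6 motifs. Over 32851 RefSeq promoters of the same length, the estrogen response element was in 0.0639%, AGGAAG in 29.5%, CCGGAA in 12%, AACAAAG in 5.03%, ACAAAG in 16.5% and ACGTG in 16.6%. Of the 40 vascular genes, 22 were in the table with 28 promoters. In these, the estrogen response element was in 0, AGGAAG in 10, CCGGAA in 1 (Kdr), AACAAAG in 3 (Apln, Pdpn and Tek), ACAAAG in 6 and ACGTG in 2 (Pdpn and Vegfa).

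Over all 40 genes the estradiol differences were small and more often below 0 than above it. In wildtype 24 of 40 were below 0, with a median of -0.10 (all genes 0.01), and in the knockout 32 of 40, with a median of -0.17 (all genes 0.01). The wildtype median lay between -0.31 and 0.12 over the alternatives run, so its sign was not stable, and the knockout median between -0.28 and -0.07. In wildtype, 8 of 40 genes had no overlap between placebo and estradiol arrays, against 17.0% of all genes: Vwf, Plvap, Lyve1 and Pdpn were higher on every estradiol array (11.9% of all genes) and Cldn5, Angpt1, Icam2 and Rgs5 lower (5.11% of all genes). In the knockout 7 had no overlap, against 13.5% of all genes, and all 7 were lower, as 5.09% of all genes were: Flt4, Fli1, Cldn5, Angpt1, Rgs5, Abcc9 and Aplnr. Cldn5, Angpt1 and Rgs5 were lower on every estradiol array of both genotypes, 3 of 40 genes where 0.627% of all genes were, and no vascular gene was higher on all of them, where 2.06% of all genes were. The estradiol comparisons of the 2 genotypes share no arrays, but the 40 genes were chosen with earlier results of these data known. Their count was not tested against the share of all genes.

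**Figure D2:**
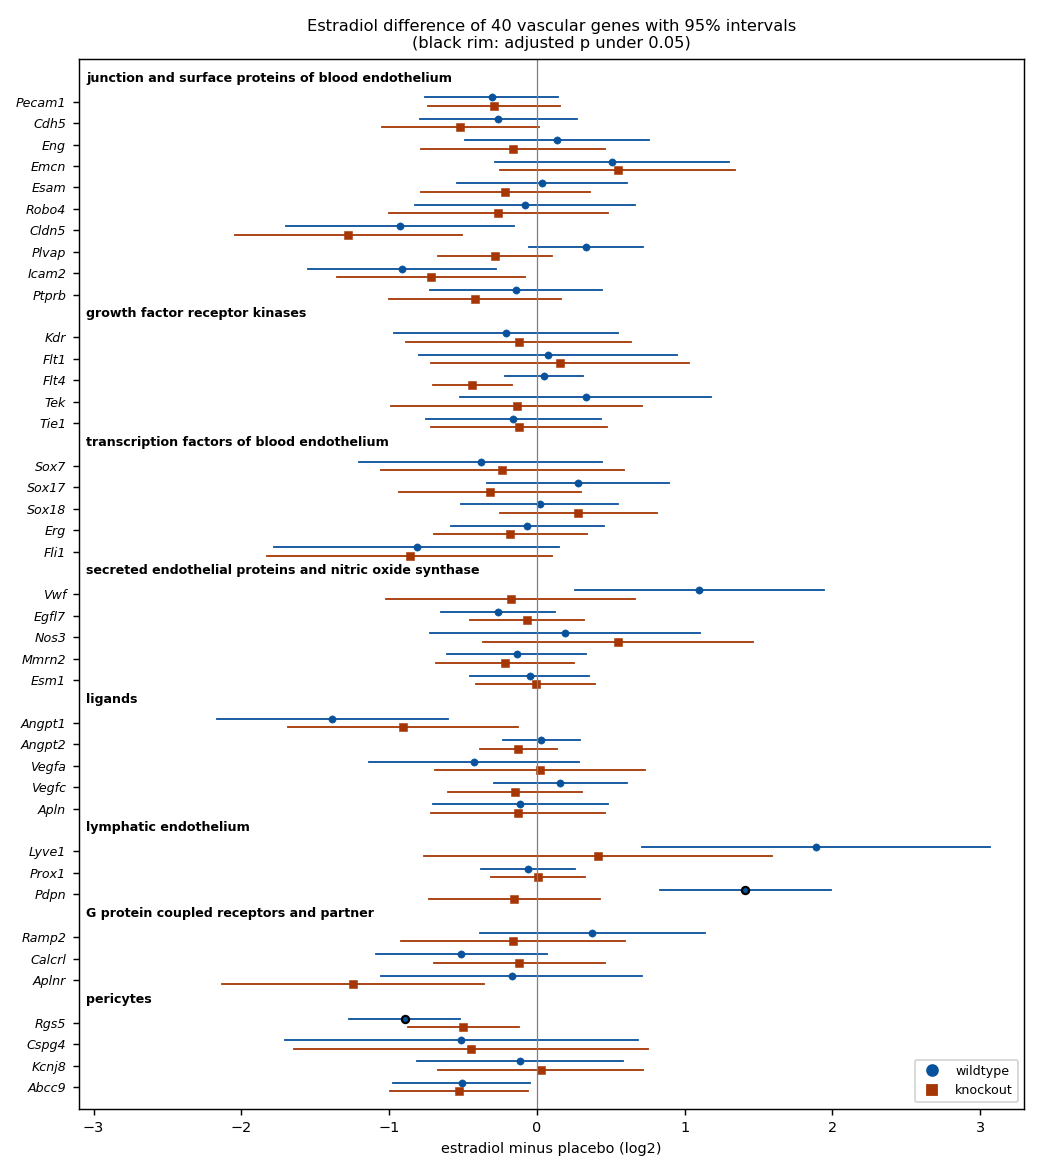
Estradiol minus placebo (horizontal axis, log2) for each of the 40 vascular genes by role, with circles for wildtype, squares for knockout and lines for 95% intervals of the limma fit. The wildtype points of Pdpn (1.41) and Rgs5 (-0.89) have a black rim, which marks an adjusted p under 0.05.

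None of the other 3 pericyte genes passed the test with estradiol. Abcc9, the regulatory subunit of a potassium channel of mural cells that muscle also makes, was 9.80, 10.33 and 10.02 in wildtype placebo, 9.94, 9.34 and 9.34 in wildtype estradiol, 9.80, 9.72 and 9.51 in knockout placebo and 8.93, 9.05 and 9.47 in knockout estradiol. Only the knockout groups were free of overlap. The average difference was -0.52 ± 0.15 (limma adjusted p = 0.129), made of -0.51 in wildtype and -0.53 in the knockout. With the s_at and x_at probe sets left out another probe set stood for Abcc9, at -0.23 (limma adjusted p = 0.505). The proteoglycan gene Cspg4 (NG2) differed by -0.51 and -0.45, and Kcnj8, the pore subunit that pairs with Abcc9, by -0.12 and 0.03. All 4 pericyte genes were below 0 in wildtype (median -0.51) and 3 of 4 in the knockout (median -0.47). The mean of 15 other pericyte and smooth muscle genes, with Acta2, Cnn1 and Tagln described below, went the other way in wildtype. It was -0.33, -0.13 and 0.35 under placebo and 0.38, 0.42 and 0.39 under estradiol, narrowly without overlap. In the knockout the groups of that mean overlapped. In wildtype, Cspg4 and Kcnj8 were below 0 only with wildtype placebo 3 included. Cspg4 was 9.14, 9.15 and 11.02 in wildtype placebo and 9.30, 9.41 and 9.07 in wildtype estradiol. Kcnj8 was 7.79, 8.16 and 9.15, and 8.53, 7.87 and 8.36, in the same order. Cspg4 was 10.11, 11.16 and 9.47 in knockout placebo and 10.14, 9.25 and 10.01 in knockout estradiol.

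Among the ligands, Angpt1 showed the lowest difference. It was 7.85, 8.09 and 8.66 in wildtype placebo, 6.64, 6.41 and 7.40 in wildtype estradiol, 7.51, 8.29 and 7.55 in knockout placebo and 7.16, 6.28 and 7.18 in knockout estradiol. Neither genotype's groups overlapped. The average difference was -1.15 ± 0.25 (2.21-fold, limma adjusted p = 0.0542), with -1.38 ± 0.35 in wildtype (limma adjusted p = 0.0862) and -0.91 in the knockout (limma adjusted p = 0.537). The other Angpt1 probe set gave -0.78 in wildtype and 0.048 in the knockout. The average passed the threshold without wildtype placebo 3, at -1.03 (limma adjusted p = 0.0401), without wildtype estradiol 3, at -1.29 (limma adjusted p = 0.0497), and with the lymphocyte marker mean as a covariate, at -1.42 (limma adjusted p = 0.00146). With the Angpt1 probe sets averaged it was -0.76 (limma adjusted p = 0.0879).

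Vegfa, the main endothelial growth factor, which adipocytes and epithelium make, was 8.62, 9.25 and 9.64 in wildtype placebo, 8.82, 8.45 and 8.96 in wildtype estradiol, 8.88, 9.51 and 9.06 in knockout placebo and 9.44, 8.54 and 9.53 in knockout estradiol. The groups overlapped in both genotypes, with differences of -0.43 (95% interval -1.14 to 0.29) and 0.02 (-0.69 to 0.73). Angpt2 was 7.27, 7.07 and 7.13 in wildtype placebo, 7.02, 7.24 and 7.31 in wildtype estradiol, 7.21, 7.03 and 6.93 in knockout placebo and 6.87, 6.87 and 7.05 in knockout estradiol, with differences of 0.03 and -0.13. Vegfc and Apln, the ligand of Aplnr, differed by 0.16 and -0.11 in wildtype and by -0.15 and -0.13 in the knockout.

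None of the 5 growth factor receptor kinases was called in any of the 7 comparisons. Kdr was 9.47, 10.14 and 10.76 in wildtype placebo, 10.03, 9.92 and 9.79 in wildtype estradiol, 10.12, 10.52 and 9.59 in knockout placebo and 10.37, 9.48 and 10.01 in knockout estradiol. All 4 groups overlapped, and the average estradiol difference was -0.17 (95% interval -0.70 to 0.37). Flt4, the Vegfc receptor, was 7.76, 7.99 and 7.80 in wildtype placebo, 8.04, 7.84 and 7.81 in wildtype estradiol, 8.05, 7.72 and 7.96 in knockout placebo and 7.55, 7.40 and 7.46 in knockout estradiol. The knockout estradiol arrays were below the other 9, with a knockout difference of -0.44 ± 0.12 (limma adjusted p = 0.341). Tie1, an orphan receptor that acts with Tek, differed by -0.16 and -0.12, Tek by 0.33 and -0.14, and Flt1 by 0.08 and 0.15, wildtype first.

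Cldn5 was the junction gene with the lowest estradiol differences. This tight junction claudin of endothelium was 9.58, 9.50 and 10.58 in wildtype placebo, 8.97, 8.81 and 9.11 in wildtype estradiol, 10.65, 10.08 and 9.30 in knockout placebo and 8.83, 8.80 and 8.57 in knockout estradiol. Placebo arrays were spread over more than 1 log2 unit and estradiol arrays were close together, with no overlap in either genotype. The average difference was -1.10 ± 0.24 (2.14-fold, limma adjusted p = 0.0602), from -0.92 in wildtype and -1.28 ± 0.35 in the knockout. The average passed the threshold without wildtype placebo 3, at -0.93 (limma adjusted p = 0.0331), without knockout placebo 3, at -1.28 (limma adjusted p = 0.0322), and with the lymphocyte covariate, at -1.26 (limma adjusted p = 0.0239). The wildtype difference was -0.58 without wildtype placebo 3 (limma adjusted p = 0.304).

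Icam2, an adhesion molecule of endothelium that leukocytes also carry, was 9.94, 9.66 and 9.08 in wildtype placebo, 8.64, 8.76 and 8.54 in wildtype estradiol, 10.05, 9.19 and 9.64 in knockout placebo and 8.50, 9.36 and 8.87 in knockout estradiol. Estradiol arrays were all lower in wildtype and overlapped with placebo in the knockout. The average difference was -0.81 ± 0.20 (limma adjusted p = 0.0838). Fli1, an ETS transcription factor of endothelium and of blood cells, was 9.78, 9.62 and 8.29 in wildtype placebo, 8.97, 8.27 and 8.01 in wildtype estradiol, 9.37, 8.58 and 9.34 in knockout placebo and 7.63, 8.57 and 8.50 in knockout estradiol. Its average difference was -0.84 (limma adjusted p = 0.219). In each group the array lowest in both genes was lymphocyte-poor: wildtype placebo 3, wildtype estradiol 3, knockout placebo 2 and knockout estradiol 1. However, wildtype estradiol 1, also lymphocyte-poor, had the highest Fli1 of its group, 8.97. With the lymphocyte marker mean as a covariate the average Icam2 difference was -0.58 (limma adjusted p = 0.0257) and the average Fli1 difference -0.53 (limma adjusted p = 0.24). Without the lymphocyte-poor placebo arrays the average was -1.04 for Icam2 (limma adjusted p = 0.00733) and -1.20 for Fli1 (limma adjusted p = 0.0132), and without wildtype placebo 3 alone -0.94 (limma adjusted p = 0.0244) and -1.07 (limma adjusted p = 0.0356).

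The general endothelial markers had overlapping groups. Pecam1 (CD31), the usual marker of vessels in sections, was 7.41, 7.81 and 7.52 in wildtype placebo, 7.58, 7.16 and 7.07 in wildtype estradiol, 7.70, 6.95 and 7.50 in knockout placebo and 7.07, 7.16 and 7.05 in knockout estradiol. Its average estradiol difference was -0.30 (95% interval -0.62 to 0.02, limma adjusted p = 0.335). Cdh5, VE-cadherin, was 6.93, 7.30 and 7.86 in wildtype placebo, 7.25, 7.17 and 6.88 in wildtype estradiol, 7.48, 7.39 and 7.13 in knockout placebo and 7.18, 6.55 and 6.72 in knockout estradiol. The average was -0.39 (95% interval -0.77 to -0.01, limma adjusted p = 0.289). Of the 10 junction and surface genes, 6 were below 0 in wildtype and 9 in the knockout, and none was called. The TGF-beta co-receptor Eng, the adhesion molecule Esam, the guidance receptor Robo4 and the phosphatase Ptprb differed by -0.14 to 0.13 in wildtype and by -0.42 to -0.16 in the knockout. Emcn, a sialomucin of capillaries and veins, was the exception in the knockout, with 0.51 in wildtype and 0.55 in the knockout.

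Vwf and Plvap had higher values with estradiol in wildtype and not in the knockout, without passing the test. Vwf, the clotting factor stored in endothelial granules, was 8.65, 9.65 and 10.09 in wildtype placebo, 10.67, 10.34 and 10.69 in wildtype estradiol, 9.61, 10.35 and 9.31 in knockout placebo and 9.52, 9.19 and 10.03 in knockout estradiol. The wildtype difference was 1.10 ± 0.38 (limma adjusted p = 0.209), the knockout difference -0.18, and their difference -1.28 (95% interval -2.47 to -0.09, limma adjusted p = 0.743). The wildtype value was 0.69 without wildtype placebo 1 (limma adjusted p = 0.567), 0.73 with the lymphocyte covariate (limma adjusted p = 0.206) and 1.41 without the 2 lymphocyte-poor placebo arrays (limma adjusted p = 0.0272). Plvap, the diaphragm protein of fenestrated capillaries, was 10.97, 11.07 and 10.89 in wildtype placebo, 11.65, 11.12 and 11.16 in wildtype estradiol, 11.19, 11.0001 and 10.90 in knockout placebo and 10.46, 10.79 and 10.99 in knockout estradiol. Its differences were 0.33 and -0.28, and the difference between them was -0.62 (limma adjusted p = 0.715). The endothelial nitric oxide synthase Nos3 differed by 0.19 and 0.55, wildtype first. The secreted proteins Egfl7, Mmrn2 and Esm1 differed by -0.26 to -0.05 in wildtype and by -0.22 to -0.01 in the knockout.

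Of the 3 lymphatic genes only Pdpn, described above, was called. Their mean, relative to all arrays, was -0.80, -0.51 and -0.13 in wildtype placebo and 0.99, 0.47 and 0.35 in wildtype estradiol, with no overlap. It was -0.18, 0.22 and -0.36 in knockout placebo and 0.39, -0.28 and -0.16 in knockout estradiol, where the groups overlapped. The mean of 7 other lymphatic genes overlapped in wildtype, at -0.23 to 0.14 under placebo and 0.004 to 0.31 under estradiol. In the knockout that mean was 0.002 to 0.30 under placebo and -0.35 to -0.12 under estradiol. Lyve1, a hyaluronan receptor of lymphatic endothelium that some macrophages carry, was 7.92, 8.84 and 9.18 in wildtype placebo, 11.50, 9.9995 and 10.11 in wildtype estradiol, 9.25, 9.81 and 8.49 in knockout placebo and 10.27, 8.83 and 9.69 in knockout estradiol. All wildtype estradiol arrays were above wildtype placebo, and the knockout groups overlapped. The wildtype difference was 1.89 ± 0.53 (3.70-fold, limma adjusted p = 0.114), the knockout difference 0.41, and the difference between them -1.48 (limma adjusted p = 0.815). The other Lyve1 probe set gave 1.80 and 0.64. The wildtype value was 2.16 without the lymphocyte-poor placebo arrays (limma adjusted p = 0.0423) and 1.35 with the lymphocyte covariate (limma adjusted p = 0.0908). The mean of 8 macrophage markers was -0.58, -0.29 and -0.54 in wildtype placebo, 1.70, 0.38 and 0.57 in wildtype estradiol, -0.44 to -0.33 in knockout placebo and -0.30 to 0.19 in knockout estradiol, and it was highest on wildtype estradiol 1, as Lyve1 was. Its part in the Lyve1 values was not tested.

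Prox1 was 4.03, 3.95 and 4.31 in wildtype placebo, 3.95, 4.30 and 3.85 in wildtype estradiol, 4.24, 4.11 and 4.21 in knockout placebo and 4.34, 4.16 and 4.09 in knockout estradiol. With a signal this low, a change in Prox1 may not be detectable.

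The remaining transcription factors, Sox7, Sox17, Sox18 and Erg, which control endothelial identity, differed by -0.38 to 0.28 in wildtype and by -0.32 to 0.28 in the knockout. Aplnr, the receptor for apelin, was named after its values were seen. It was 9.44, 9.79 and 10.44 in wildtype placebo, 9.44, 10.04 and 9.68 in wildtype estradiol, 9.35, 10.77 and 9.51 in knockout placebo and 8.78, 9.004 and 8.13 in knockout estradiol. The knockout estradiol arrays were below the other 9, with differences of -1.24 from knockout placebo (limma adjusted p = 0.447) and -1.08 from wildtype estradiol (limma adjusted p = 0.268). The adrenomedullin receptor Calcrl and its partner Ramp2 differed by -0.51 and 0.38 in wildtype and by -0.12 and -0.16 in the knockout.

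The genotype comparisons use the same arrays as the estradiol comparisons. Loss of Ccnd1 gave no call among the 40 genes under placebo (limma; 0% of all genes called), under estradiol (limma; 1.12% of all genes called) or averaged over treatments (limma; 0% of all genes called). At an unadjusted p under 0.05 there were 0, 6 and 4 vascular genes, against 2.03%, 13.5% and 10.1% of all genes. Under placebo 26 of 40 genes were below 0 (median -0.09, all genes 0.02), and Vegfc and Abcc9 were lower on every knockout array, where 6.71% of all genes had no overlap and 1.81% were lower. For Abcc9 the margin was very narrow, with 9.79955 on knockout placebo 1 against 9.80212 on wildtype placebo 1. Under estradiol 29 of 40 were below 0 (median -0.20, all genes 0.03). Flt4, Tek, Esam, Vwf, Plvap, Vegfc, Mmrn2, Pdpn and Aplnr, 9 genes, were lower on every knockout array under estradiol, against 22.3% of all genes without overlap and 11.8% all lower, and none was higher. Averaged over treatments, 33 of 40 genes were below 0, with a median of -0.17 (all genes 0.02). That median stayed between -0.25 and -0.07 over the alternatives run. Under estradiol the mean marker levels of several other cell types were lower on every knockout array than on every wildtype array. The mean of 8 luminal epithelium markers was 1.46 to 3.00 in wildtype estradiol and -1.93 to -0.52 in knockout estradiol, with 4 called. That of 8 basal markers was 0.77 to 1.56 and -0.20 to 0.06, with 2 called, Acta2 and Cnn1. The fibroblast means (0.49 to 0.82 and -0.51 to 0.18) and macrophage means (0.38 to 1.70 and -0.30 to 0.19) did not overlap either, with none called. Schwann cell marker means were also separate (0.34 to 1.07 and -0.55 to -0.15). So were, narrowly, white adipocyte marker means (-0.036 to 0.280 and -0.142 to -0.041). The skeletal muscle means overlapped widely over both treatments (wildtype -1.24 to 3.48, knockout -3.91 to 2.51), and no muscle marker was called. The part of these markers in the vascular values was not tested.

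**Figure D3:**
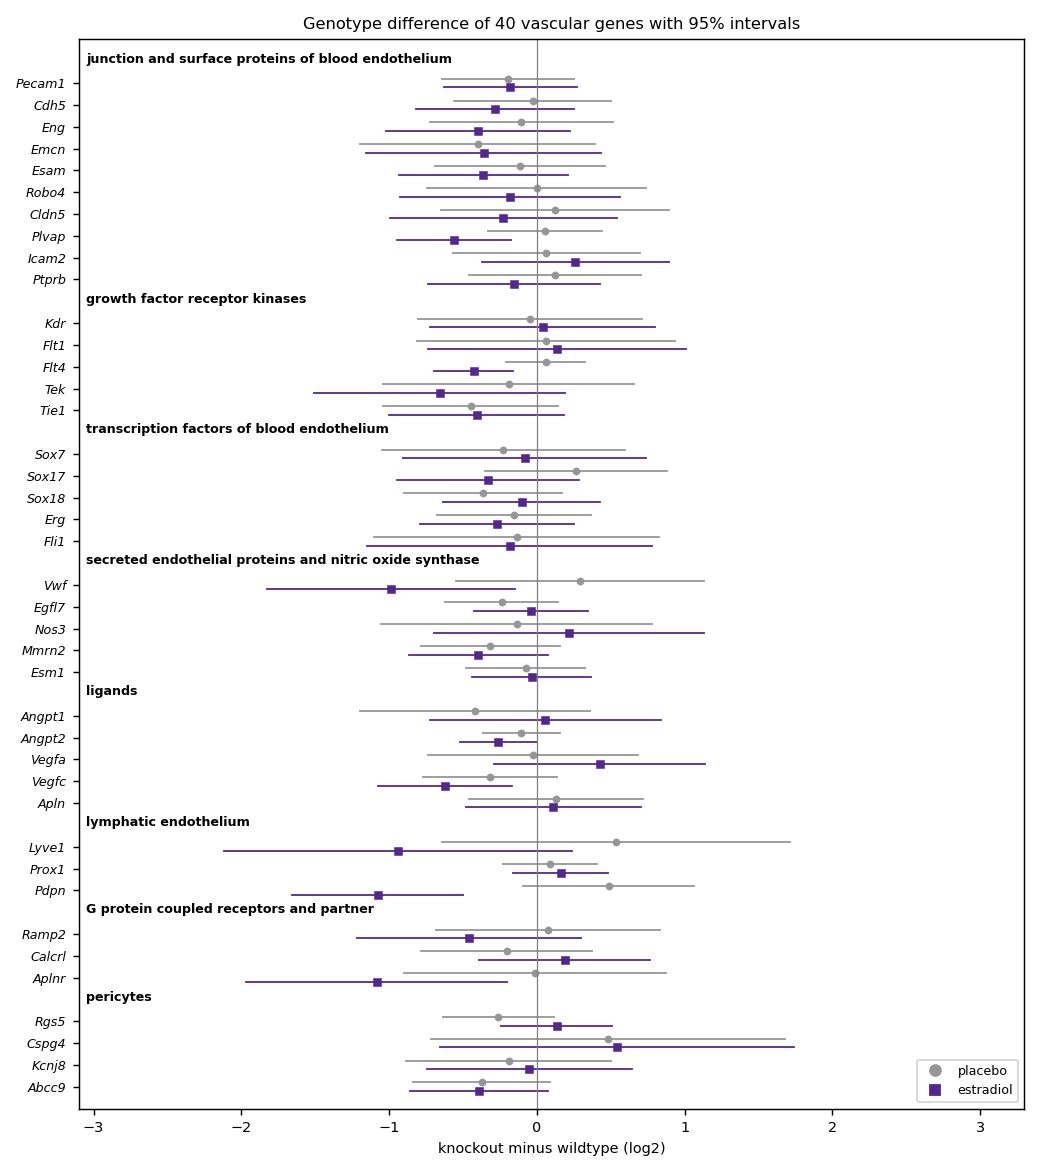
Knockout minus wildtype (horizontal axis, log2) for each of the 40 vascular genes by role, with circles for placebo, squares for estradiol and lines for 95% intervals of the limma fit. Under estradiol 29 of 40 squares lie left of 0, and no gene was called under either treatment.

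The smallest p-values for genotype belonged to Vegfc, Mmrn2, Abcc9, Tie1 and Angpt2, all lower in the knockout. Vegfc, the lymphatic growth factor, was 6.82, 6.74 and 6.93 in wildtype placebo, 6.71, 7.09 and 7.17 in wildtype estradiol, 6.27, 6.67 and 6.60 in knockout placebo and 6.66, 6.53 and 5.91 in knockout estradiol. All 6 knockout arrays were below all 6 wildtype arrays. The average difference was -0.47 ± 0.14 (limma adjusted p = 0.327). Mmrn2, an endothelial matrix glycoprotein, was 10.06, 10.30 and 10.60 in wildtype placebo, 10.09, 10.10 and 10.36 in wildtype estradiol, 10.07, 10.28 and 9.66 in knockout placebo and 9.95, 9.42 and 9.997 in knockout estradiol. Its average was -0.36 (limma adjusted p = 0.463), with overlap under placebo. Tie1 was 7.19, 7.68 and 8.36 in wildtype placebo, 7.68, 7.37 and 7.71 in wildtype estradiol, 7.12, 7.54 and 7.23 in knockout placebo and 7.46, 6.93 and 7.14 in knockout estradiol. It differed by -0.43 (limma adjusted p = 0.48), Abcc9 by -0.38 (limma adjusted p = 0.417) and Angpt2 by -0.18 (limma adjusted p = 0.502). With the Angpt2 probe sets averaged, its average genotype difference was only -0.037 (limma adjusted p = 0.899), and 0.026 under placebo. In the test of the interaction the smallest p-values were those of Pdpn, Flt4, Plvap, Vwf and Lyve1. All 5 had a lower response in the knockout.

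Further vascular genes, from lists set beside the 40, showed 5 called genes. For 16 genes of the VEGF, angiopoietin and adrenomedullin pathways the mean was -0.24, -0.14 and 0.13 in wildtype placebo. Under estradiol it was 0.21, 0.22 and 0.27 in wildtype, without overlap, while the knockout groups overlapped. Of these 16 genes, 1 was called in wildtype, where 1.88% of all genes were. This was Thbs1, the angiogenesis inhibitor thrombospondin 1. It was 4.72, 4.82 and 4.69 in wildtype placebo, 5.36, 6.55 and 6.45 in wildtype estradiol, 4.89, 4.33 and 4.77 in knockout placebo and 4.45, 4.79 and 4.71 in knockout estradiol. The wildtype estradiol arrays were above the other 9. Thbs1 rose by 1.37 ± 0.28 in wildtype (limma adjusted p = 0.0399) and was 1.47 lower in the knockout under estradiol (limma adjusted p = 0.0389), while the interaction was -1.38 (limma adjusted p = 0.475). Its calls were marginal: with its probe sets averaged the wildtype value was 0.94 (limma adjusted p = 0.0682), and both calls were lost when any 1 array other than wildtype placebo 3, wildtype estradiol 1 or knockout placebo 2 was left out (limma adjusted p from 0.0547 to 0.158).

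Of 38 other endothelial genes, 1 was called in the average over genotypes, where 1.58% of all genes were. This was Clec14a, a lectin-like surface protein of vessel endothelium. Clec14a was 6.78, 6.94 and 7.32 in wildtype placebo, 8.33, 7.54 and 7.80 in wildtype estradiol, 6.83, 6.59 and 6.77 in knockout placebo and 7.56, 7.80 and 7.26 in knockout estradiol. In both genotypes every estradiol array was above every placebo array. Clec14a rose by 0.84 ± 0.16 (1.79-fold, limma adjusted p = 0.0298), from 0.87 in wildtype and 0.81 in the knockout. Averaging its probe sets gave 0.54 (limma adjusted p = 0.0677), and the call was lost without wildtype placebo 1 or 2, wildtype estradiol 3, knockout placebo 1, 2 or 3 or knockout estradiol 1 or 2 (limma adjusted p from 0.053 to 0.0905). The 38 genes as a list had median differences of 0.07 in wildtype and -0.14 in the knockout, and 31 were below 0 for genotype under estradiol.

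None of 7 other lymphatic genes was called in any comparison (limma). Those with the smallest p for the average estradiol difference were Mmrn1, at -0.72 (limma adjusted p = 0.304), and the scavenger receptor Stab1, at 0.48 (limma adjusted p = 0.32). Of 15 other pericyte and smooth muscle genes, 3 rose in wildtype with estradiol and were lower in the knockout under estradiol. Of all genes, 1.88% were called in wildtype and 1.12% for genotype under estradiol. Acta2, smooth muscle actin, rose by 1.59 (limma adjusted p = 0.00522) and was 1.56 lower in the knockout under estradiol (limma adjusted p = 0.0151). The contractile genes Cnn1 and Tagln rose by 1.97 (limma adjusted p = 0.0177) and 0.86 (limma adjusted p = 0.0414). For Cnn1 the genotype difference under estradiol was -2.15 (limma adjusted p = 0.0193) and for Tagln -1.01 (limma adjusted p = 0.0274). Acta2 and Cnn1 are also markers of basal (myoepithelial) cells. The basal marker mean, higher on the same arrays, includes both genes, so it is not independent of them. With the s_at and x_at probe sets left out, Acta2 was represented by another probe set, at 0.44 (limma adjusted p = 0.406). Some of these calls depended on single arrays. The genotype call of Acta2 was lost without wildtype estradiol 3 or knockout estradiol 2 or 3 (limma adjusted p up to 0.0718). For Cnn1 the wildtype call was lost without wildtype placebo 1 or 2 or wildtype estradiol 2 or 3 (limma adjusted p up to 0.0886), and for Tagln without any array other than wildtype placebo 3 and knockout placebo 2 (limma adjusted p up to 0.185). The genotype calls of both were lost without wildtype estradiol 2 or 3 or any knockout estradiol array (limma adjusted p up to 0.124).

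The vascular genes also differed between arrays of one group. Of the 40 genes, 30 were lowest on wildtype placebo 1 of its group and 31 were highest on wildtype placebo 3, whereas 36.0% and 49.6% of all genes were lowest or highest there. In knockout placebo 26 were highest on array 2, where 53.4% of all genes were, and in knockout estradiol 23 were lowest on array 2, where 34.6% of all genes were. The mean of the 40 genes was -0.23, 0.06 and 0.48 in wildtype placebo, 0.22, -0.10 and 0.01 in wildtype estradiol, 0.03, 0.28 and -0.17 in knockout placebo and -0.07, -0.36 and -0.14 in knockout estradiol. The placebo arrays with the highest means, wildtype placebo 3 and knockout placebo 2, were the lymphocyte-poor ones of their groups. In estradiol glands the lymphocyte-poor arrays were at 0.22, 0.01 and -0.07 and the others at -0.10, -0.36 and -0.14. Glycam1, an adhesion ligand of the high endothelial venules of lymph nodes that the mammary epithelium also makes, was 4.18 to 6.54 on the 5 lymphocyte-poor arrays and 10.90 to 13.50 on the other 7. None of 6 venule and lymph node stroma genes, Glycam1 among them, was called in any comparison (limma). Those with the smallest p for the average estradiol difference were Ltbr, at 0.47, and Madcam1, at -0.39. Without the 2 lymphocyte-poor placebo arrays, a setting chosen after the values were seen, 8 of 40 vascular genes were called in wildtype and 11 in the average, where 2154 and 3913 of all genes were.

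**Figure D4:**
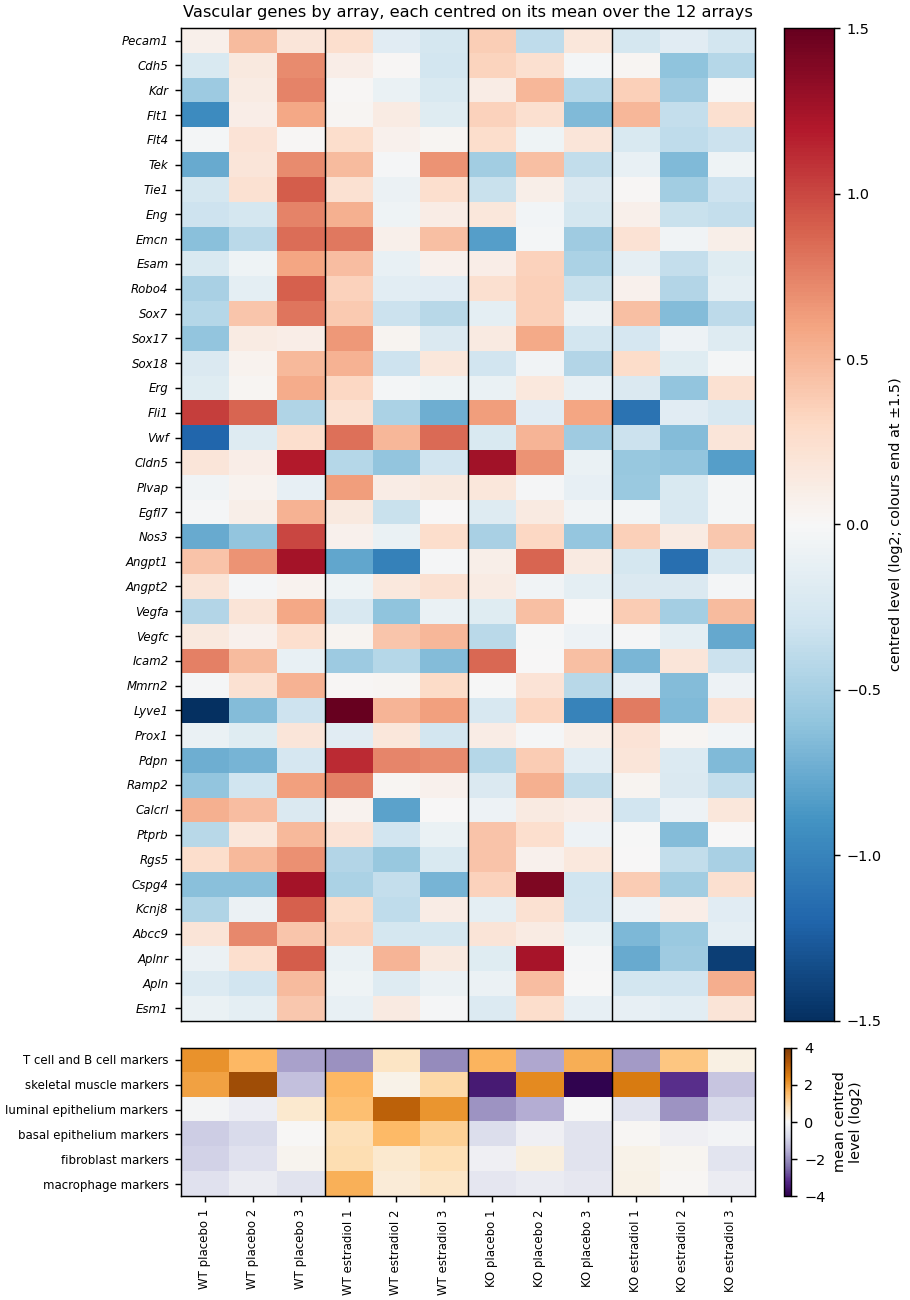
Upper panel: log2 signal of each vascular gene (rows) on each array (columns), minus its mean over the 12 arrays, with red above and blue below that mean and colours that end at 1.5. Lower panel: mean of the same quantity over marker genes of other cell types, with orange above and purple below; wildtype placebo 3 is red in most vascular rows and purple for T cell and B cell markers.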

How the data were processed

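Mammary gland RNA of 12 mice was measured on Affymetrix arrays. The authors deposited log2 values for 45101 probe sets, normalized with RMA per the submitters' processing notes, which also name limma 2.9.16. RMA subtracts background and brings all arrays to 1 distribution, so it hides differences in total RNA. The genome build is not given in the sources used here.

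Probe sets were named from the platform annotation: 34945 had 1 gene symbol, 932 several, 9160 none and 64 were controls. Each of 18193 genes was given by its brightest probe set. In R 4.3.3, limma 3.58.1 fitted the 4 group means over all 12 arrays with eBayes (8 residual and 2.15 prior degrees of freedom), without an intensity filter. Of the 7 comparisons, 4 were between pairs of groups, 1 was the interaction and 2 were averages. Differences are estradiol minus placebo and knockout minus wildtype, and for the interaction the wildtype response is subtracted from that of the knockout. P-values were adjusted by Benjamini-Hochberg over all genes in each comparison, with 0.05 as threshold. The design text states separate mice, and 3 arrays per group limit the precision. The script was tested on simulated data.

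The members and lists were chosen with earlier results of these data known. Genes given by array were those called, the 8 with the smallest p for the average estradiol difference, the 5 each for genotype and interaction, and Kdr, Vegfa, Pecam1, Cdh5, Lyve1, Prox1, Pdpn and Rgs5. From the other vascular lists, called genes or the 2 with the smallest p were given. Alternatives changed the probe set rule, scaling, filter, weights, model, threshold and arrays. The removal of both lymphocyte-poor placebo arrays and the lymphocyte covariate were added after seeing the data. Promoter sequences are from RefSeq, GRCm38.p6.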

Additional observations from a re-analysis of the deposited data

How the results depend on the processing

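Of the 40 vascular genes, 1 was called for the average estradiol difference and 2 for the wildtype one. The average count became 4 at an adjusted p under 0.10, 12 with array weights (whose fit stopped before convergence), 11 without both lymphocyte-poor placebo arrays, 4 with the lymphocyte covariate, 2 without the dimmest 40% of genes and 0 with probe sets averaged. The wildtype count became 12 with array weights, 8 without both lymphocyte-poor placebo arrays, 1 with probe sets averaged and 0 when limma was fitted to only the arrays of the groups compared. The count for genotype under estradiol, 0, became 1 (Pdpn) at an adjusted p under 0.10, with array weights, without both lymphocyte-poor placebo arrays and with the covariate, and the interaction count, 0, became 1 (Pdpn) with array weights. Leaving out single arrays gave 0 to 7 for the average estradiol difference (7 without wildtype placebo 3), 0 to 3 for wildtype and 0 to 0 for the other comparisons. Replicate numbers were not used as pairs in the reported fit. The correlation of same-numbered arrays' deviations from their group means ran from -0.741 to 0.66. Arrays within groups also differed in lymphocyte and muscle genes, so these values cannot show whether same-numbered arrays were paired. With the replicate block, 0 vascular genes were called in any comparison, Rgs5 and Pdpn in wildtype having limma adjusted p-values of 0.0786 and 0.0832. Counts over all genes moved too. The wildtype count of 342 became 4702 with array weights, 2154 without both lymphocyte-poor placebo arrays, 674 with the covariate, 715 at 0.10, 158 with the replicate block and 71 on its own arrays. For knockout, 18 became 73, 50, 48, 30, 10 and 5 under these settings in this order. For genotype under estradiol, 204 became 428, 472, 981, 473, 45 and 47, and 119 without the dimmest 40%. The average estradiol count of 287 became 4835, 3913, 507, 585 and 134, and the average genotype count of 0 became 198, 5, 124, 43 and 0. The interaction count of 2 became 84, 3, 39, 4 and 0. The genotype count under placebo, 0, became 4, 1, 0, 0 and 0. Leaving out single arrays gave 100 to 1146 for wildtype, 10 to 25 for knockout, 0 to 315 for genotype under estradiol and 127 to 1400 for the average estradiol difference. Of 6586 differences of vascular genes over 24 settings, 450 changed sign, 0 of them with an unadjusted p under 0.05 in the fit reported. The median of the 40 genes changed sign in some settings for estradiol in wildtype (-0.31 to 0.12), the average estradiol difference (-0.26 to 0.05), genotype under placebo (-0.28 to 0.14) and the interaction (-0.26 to 0.07). The causes were not tested. Signal near background limits Prox1 and Esm1.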
